A study of Nematostella vectensis with 10 samples.

Results

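*Nvznf845* (NV2.17877), *NvpaxA* (NV2.6786) and *GFI1B-like3* (NV2.25410) are genes for transcription regulators that the study's table of published cnidocyte genes lists for the sea anemone *Nematostella vectensis*. They were picked by name and gene number, with no threshold on their values but with earlier results of these data known, and are 3 of 24520 genes in the files. Each gene was measured as the sum of its transcripts: 2 for *Nvznf845*, 4 for *NvpaxA* and 1 for *GFI1B-like3*. The comparison asked how far each gene fell after *Nvznf845* was knocked down, whether the *Nvznf845* left in a pair of libraries went with the *NvpaxA* and *GFI1B-like3* left in that pair, and how the genes ranked in control embryos.

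RNA came from whole wildtype gastrulae at 28 hours post fertilization (hpf), raised at 24 °C, in pools of about 1000 injected embryos. In 5 libraries the embryos had received *Nvznf845* shRNA, a short hairpin RNA that lowers its target by RNA interference, and in the other 5 a control hairpin, which the labels call scramble RNA. The knockdown used a single shRNA sequence, injected just after fertilization, and the embryos carried no transgene. Each knockdown library has a control of the same replicate number and the same labelled batch, and pairs 4 and 5 share a batch.

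Cnidocytes are the stinging cells of cnidarians. Each builds a capsule from small collagens, and the inverted tubule inside the capsule everts outward when the cell is stimulated. *Nvznf845* encodes a zinc finger protein required early in the making of these cells in *Nematostella*. *NvpaxA* encodes a paired domain transcription factor that is required for cnidocyte development in this animal. *GFI1B-like3* is named after GFI1B, a zinc finger repressor known in vertebrates from the development of red cells and platelets, and its role in *Nematostella* is not given in the sources used here. No sequence is shown for the members, because no entry of the reference table used here matched their gene numbers or names.

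The libraries held 18891111 to 49293261 estimated reads, with medians of 27150158 in controls and 23423720 in knockdown libraries. Libraries of pair 3 stood apart: their 10 most abundant genes took 56.0% of the reads in the control and 67.4% in the knockdown. After TMM scaling, which discounts such genes, the effective size of knockdown replicate 3 was 13091187 reads, against 22835228 to 40507834 in the other 9 libraries. Levels below are CPM, counts scaled to this effective size, for comparing libraries, or TPM, which also correct for transcript length, for comparing genes. Where pair 3 decided a value below, the value without it or on another scale stands beside it.

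The targeted gene was lower in every knockdown library. *Nvznf845* stood at 51.5, 53.7, 59.2, 58.6 and 58.6 CPM in control replicates 1 to 5. It stood at 9.50, 12.2, 6.80, 12.9 and 10.8 CPM in the knockdown libraries of the same numbers. The highest knockdown value lay far below the lowest control value, and knockdown replicate 3 was the lowest of all. The mean fell from 56.3 ± 3.49 to 10.4 ± 2.42 CPM (SD, n = 5 each). The log2 fold change was −2.42 (SE 0.159, 95% interval −2.77 to −2.07, adjusted p = 5.06e-07 by edgeR's quasi-likelihood test, Benjamini-Hochberg over 19001 genes).

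*NvpaxA* fell further. Its control libraries held 77.5, 97.2, 106.3, 99.5 and 106.3 CPM, and its knockdown libraries 1.97, 2.49, 1.30, 1.33 and 1.88 CPM. Few reads of the gene were left in any knockdown library, 45, 76, 17, 36 and 76 against 1906 to 4242 in controls. The mean fell from 97.4 ± 11.8 to 1.79 ± 0.495 CPM (SD, n = 5 each). The log2 fold change was −5.74 (SE 0.201, 95% interval −6.18 to −5.30, adjusted p = 7.33e-09, edgeR). Of all genes tested, 0.589% had a lower log2 fold change.

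*GFI1B-like3* was the least abundant of the genes in controls and fell as well. Control replicates 1 to 5 held 8.98, 8.29, 7.24, 10.7 and 10.8 CPM, and the knockdown libraries 1.36, 2.65, 2.139, 1.62 and 2.10 CPM. The groups did not overlap, although the highest knockdown value, in replicate 2, rested on 81 reads and the lowest control value, in replicate 3, on 208. The mean fell from 9.21 ± 1.56 to 1.97 ± 0.501 CPM (SD, n = 5 each). The log2 fold change was −2.22 (SE 0.202, 95% interval −2.66 to −1.78, adjusted p = 9.72e-06, edgeR).

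**Figure D1:**
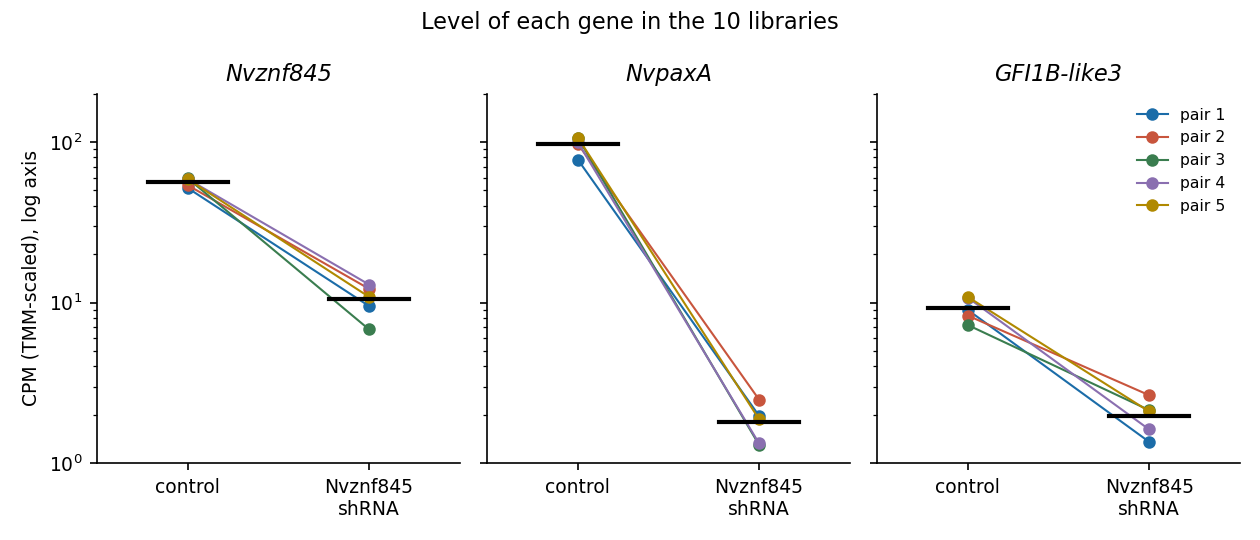
CPM of *Nvznf845*, *NvpaxA* and *GFI1B-like3* in each of the 10 libraries on a log axis, with lines joining the control and *Nvznf845* shRNA library of a pair and black bars at group means. Every line falls, from 77.5–106.3 to 1.30–2.49 CPM for *NvpaxA* and by smaller steps for the other 2 genes.

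All 3 genes were called lower, which required a change of 1.5-fold or more and an adjusted p up to 0.05. By the same rule 4.23% of the 19001 genes tested were called lower and 1.21% higher. For all 3 genes every knockdown library lay below every control library, as it did for 4.75% of genes tested. They were also lower in 5 of 5 pairs, as were 8.35% of genes tested. *Nvznf845* is the gene that the shRNA targets, and the study's table marks *NvpaxA* and *GFI1B-like3* for *Nvznf845*. Those marks were set partly from these samples, so the calls of the 3 genes restate them and are no separate support. The median log2 fold change of all genes tested was 0.0099. In RNA from whole embryos, fewer cells that express a gene and less RNA per cell cannot be told apart. The 5 capsule collagen genes *ncol1*, *ncol3*, *ncol4*, *mcol1* and *Ncol*, which mark cnidocytes, were present in controls at a summed 567 to 729 CPM and stood at 23.9 to 38.2 CPM in knockdown libraries, with all 5 genes called lower. The lowest of these was *Ncol*, with 1 read over the 5 knockdown libraries. The study's table marks all 5 for *Nvznf845*, partly from these samples, so they are no separate measure of cnidocyte number. Of 12 other transcription factor genes of that table, 5 were called lower and 7 were not called. Among the latter, *foxE-like*, which the paper describes as confined to cnidocytes and their progenitors, stood at 68.7% of its mean control CPM. The part of cnidocyte number in the fall of the regulators was not tested.

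Relative spread among libraries was larger in the knockdown group, a difference that was not tested. The coefficient of variation of *Nvznf845* was 6.20% over controls and 23.2% over knockdown libraries, or 13.3% without knockdown replicate 3. That of *NvpaxA* was 12.2% and 27.6%, or 24.8% without knockdown replicate 3. That of *GFI1B-like3* was 16.9% and 25.4%, or 29.4% without knockdown replicate 3. Knockdown libraries held only 17 to 76 reads of *NvpaxA* and 28 to 85 of *GFI1B-like3*, and the share of counting error in their spread was not examined. Control levels of *Nvznf845* were the most even of the 3 genes.

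The gene sum of *Nvznf845* hid transcripts with different courses. NV2t017877001.1, of 1486 bases, made up 98.3% to 98.7% of the gene's TPM in controls. It fell from 54.4 ± 3.35 to 8.71 ± 2.60 CPM (SD, n = 5 each), with a log2 fold change of −2.63 (SE 0.209, adjusted p = 1.21e-05, edgeR on transcripts). By that rule 3.32% of the 25465 transcripts tested were called lower.

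The longer transcript, NV2t017877002.1 of 3098 bases, was not called. Its control libraries held 1.91, 1.58, 2.30, 1.97 and 1.86 CPM and its knockdown libraries 1.52, 2.07, 2.21, 1.61 and 1.26 CPM. These ranges overlapped, and the value was lower in 4 of 5 pairs. The log2 fold change was −0.15 (SE 0.219, 95% interval −0.64 to 0.33, adjusted p = 0.975, edgeR). The estimates rest on 37.6 to 74.3 reads per control library and 28.9 to 63.3 per knockdown library.

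The remaining reads of the gene therefore had another make-up. NV2t017877002.1 took 1.29% to 1.72% of the gene's TPM in controls and 5.36% to 17.4% in knockdown libraries, with means of 1.51% ± 0.171 and 8.85% ± 4.90 (SD, n = 5 each). The groups did not overlap, and the two-sided exact permutation test over libraries, which leaves the pairing out, gave p = 0.00794, the smallest that 5 against 5 allows. Of estimated reads, it took 16.1%, 17.0%, 32.5%, 12.5% and 11.6% in knockdown replicates 1 to 5, against 2.95% to 3.89% in controls. NV2t017877002.1 remained the less abundant transcript in every library. Its log2 ratio of knockdown to control exceeded that of NV2t017877001.1 in 5 of 5 pairs, by 2.53 ± 0.655 (SD, n = 5 pairs; exact sign-flip permutation test within pairs, p = 0.0625, the smallest that 5 pairs allow). A test of transcript usage in edgeR gave an adjusted p of 1.84e-13 for the gene, and 2.30% of the 3701 genes tested in this way were called. Salmon divides reads that fit both transcripts between them, and how far these transcripts overlap, and where the shRNA matches them, was not examined here.

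**Figure D2:**
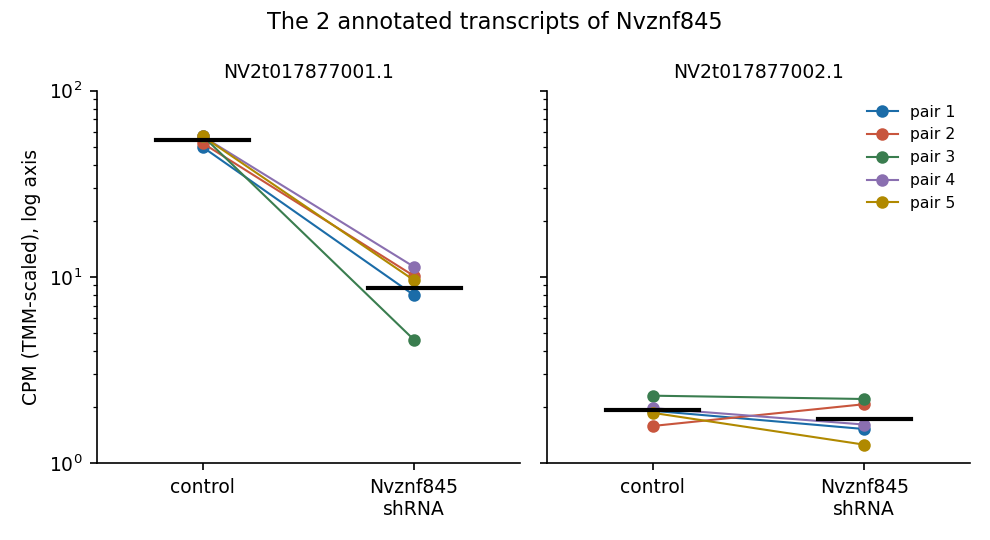
CPM of the transcripts of *Nvznf845* in each library on a log axis, with pairs joined by lines and black bars at group means. NV2t017877001.1 falls in each pair, from 49.6–56.9 to 4.59–11.3 CPM, and NV2t017877002.1 stays between 1.26 and 2.30 CPM in both groups.

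With the knockdown read as transcript NV2t017877001.1 alone, 16.1%, 19.4%, 8.06%, 19.95% and 16.9% of the control level was left in pairs 1 to 5. Pair 3 was again the lowest.

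*NvpaxA* has transcripts of 3725, 3832, 3620 and 3675 bases, numbered 001 to 004. In controls all of them were above 0 in all 5 libraries, and NV2t006786004.1 led with 75.2% ± 4.65 of the gene's TPM (SD, n = 5). NV2t006786002.1 held 13.8% ± 2.95, NV2t006786003.1 6.91% ± 2.144 and NV2t006786001.1 4.11% ± 1.19. In each knockdown library every remaining read was assigned to 1 transcript, which was NV2t006786004.1 in replicates 1, 2 and 3, NV2t006786002.1 in replicate 4 and NV2t006786003.1 in replicate 5. With 17 to 76 reads over near-equal transcripts, these knockdown shares were not read as a change of usage, although the gene passed the same usage test (adjusted p = 0.0305, edgeR). *GFI1B-like3* has a single transcript of 2024 bases.

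The residual level, the knockdown CPM as a percent of the control CPM of its own pair, put the pairs on 1 scale. For *Nvznf845* it was 18.4%, 22.7%, 11.5%, 22.1% and 18.5% in pairs 1 to 5, with a mean of 18.6% ± 4.45 (SD, n = 5). The exact Clopper-Pearson interval of pair 3, 9.17% to 14.2%, lay below those of the other pairs, the lowest of which began at 15.9%. These intervals cover counting error only.

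For *NvpaxA* the residual level was 2.54%, 2.56%, 1.22%, 1.33% and 1.76%, with a mean of 1.88% ± 0.641 (SD, n = 5). The interval of pair 3, 0.711% to 1.96%, and that of pair 4, 0.932% to 1.85%, lay below that of pair 2, 2.01% to 3.21%. All other intervals overlapped.

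For *GFI1B-like3* the residual level was 15.1%, 31.97%, 29.5%, 15.1% and 19.4%, with a mean of 22.2% ± 8.02 (SD, n = 5). The intervals of pair 1, 10.02% to 22.1%, and pair 4, 10.8% to 20.8%, lay below that of pair 2, 24.4% to 41.6%. The interval of pair 3, 19.2% to 43.97%, overlapped those of all other pairs.

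**Figure D3:**
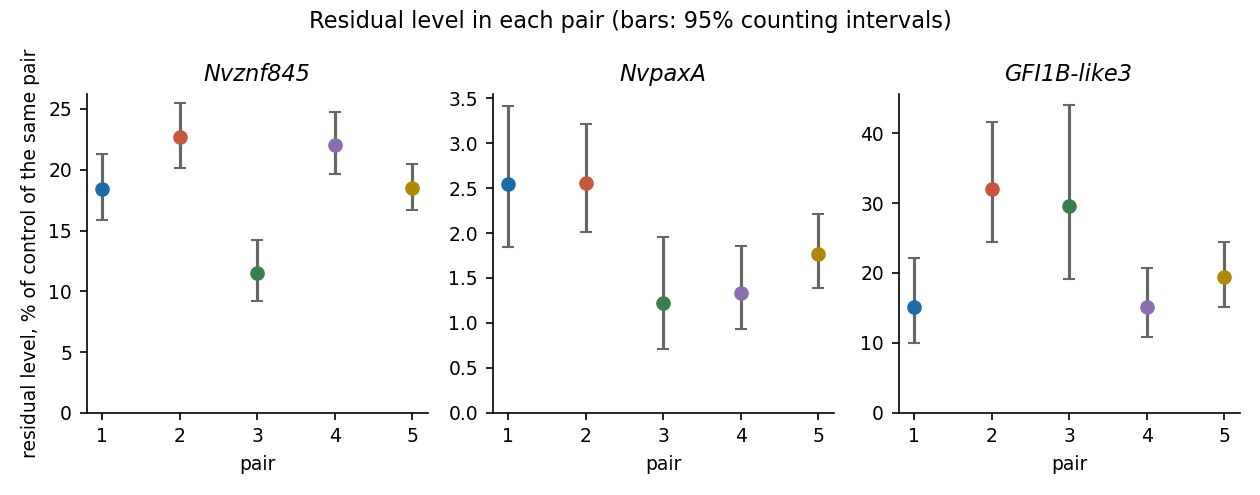
Residual level of each gene in each pair, in percent of the paired control, with 95% counting intervals as bars and a separate linear axis from 0 for each gene. *Nvznf845* and *NvpaxA* are both lowest in pair 3 (11.5% and 1.22%), and *GFI1B-like3* is at 29.5% there.

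From lowest to highest residual, the pairs ran 3, 1, 5, 4, 2 for *Nvznf845*, 3, 4, 5, 1, 2 for *NvpaxA* and 1, 4, 5, 3, 2 for *GFI1B-like3*. Pair 2 was the highest for all 3 genes. Pair 3 was the lowest for *Nvznf845* and *NvpaxA* and the second highest for *GFI1B-like3*. Pair 4 was near the high end for *Nvznf845* and near the low end for *NvpaxA* and *GFI1B-like3*. Pairs 1 and 5 for *Nvznf845*, pairs 1 and 2 for *NvpaxA* and pairs 1 and 4 for *GFI1B-like3* changed places under 1 or more of the other scalings. As TPM, pair 4 was second lowest for *Nvznf845*. With 5 pairs, too few for a correlation, none was computed.

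The place of pair 3 in the order depended on the scale for *GFI1B-like3*, and its value for all 3 genes. *Nvznf845* was lowest in pair 3 at 11.5% with TMM scaling, 7.17% with library size alone and 5.89% as TPM. *NvpaxA* was also lowest in pair 3 on each scale, at 1.22%, 0.763% and 0.765%. *GFI1B-like3* in pair 3 was at 29.5% with TMM scaling, 18.4% with library size alone and 18.3% as TPM, which moved it to the middle of its order.

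Differences between genes within a pair do not depend on how libraries are scaled. The log2 ratio of knockdown to control was lower for *NvpaxA* than for *Nvznf845* by −2.86, −3.15, −3.23, −4.05 and −3.39 in pairs 1 to 5. *NvpaxA* had the larger fall in every pair, by a mean of −3.34 ± 0.443 (SD, n = 5; two-sided exact sign-flip permutation test, p = 0.0625, the smallest that 5 pairs allow). Leaving out each pair in turn gave means from −3.45 to −3.16.

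*GFI1B-like3* minus *Nvznf845* was −0.287, 0.496, 1.36, −0.544 and 0.0669 in the 5 pairs. The difference was above 0 in 3 pairs and below 0 in 2, with a mean of 0.219 ± 0.750 (SD, n = 5; exact sign-flip p = 0.625). Without replicate 3 the mean was −0.0669, so its sign rested on that pair. The spread of these values does not show that the genes fell alike, since single pairs differed by up to 1.36. *NvpaxA* also fell further than *GFI1B-like3* in 5 of 5 pairs, by a mean of −3.55 ± 0.720 (SD, n = 5; exact sign-flip p = 0.0625).

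Levels of the genes were compared in TPM. In controls *Nvznf845* stood at 54.3, 72.1, 48.4, 92.6 and 90.8 TPM, *NvpaxA* at 29.6, 47.3, 31.6, 57.8 and 59.7 TPM, and *GFI1B-like3* at 6.70, 7.88, 4.20, 12.04 and 11.9 TPM. The order *Nvznf845*, *NvpaxA*, *GFI1B-like3* held in each of the 5 control libraries. The level of *NvpaxA* was 0.545 to 0.658 times that of *Nvznf845* within a library, with a geometric mean of 0.626. *GFI1B-like3* was at 0.0868 to 0.131 times *Nvznf845*, and *NvpaxA* at 4.42 to 7.53 times *GFI1B-like3*. For each of these 3 ratios the exact sign-flip test gave p = 0.0625, the smallest that 5 libraries allow. On CPM, which do not correct for length, *NvpaxA* exceeded *Nvznf845*, its transcripts being the longer ones.

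Among all genes tested, control levels in TPM put *Nvznf845* at percentile 91.8, *NvpaxA* at 86.6 and *GFI1B-like3* at 49.2, against a median gene at 8.85 TPM.

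In knockdown libraries the order changed. *Nvznf845* stood at 10.2, 17.2, 2.85, 17.2 and 17.0 TPM, *GFI1B-like3* at 1.12, 2.88, 0.767, 1.62 and 2.45 TPM, and *NvpaxA* at 0.834, 1.40, 0.242, 0.654 and 1.15 TPM. *Nvznf845* remained the highest in each library, and *NvpaxA* was below *GFI1B-like3* in all 5, at 0.315 to 0.747 times its level. The ratio of *NvpaxA* to *Nvznf845* had dropped to 0.0380 to 0.0849, outside the control range.

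The study's table marks *ncol4*, a minicollagen of the capsule, *ggt*, named for gamma-glutamyl transferase, and *NEP3-like*, named for a toxin of nematocysts, as regulated by *NvpaxA*. It marks all 3 genes for *Nvznf845* as well, and *NEP3-like* also for *foxE-like*. The marks for *Nvznf845* were set partly from these samples, so a fall of these genes here is no separate support. All 3 genes were called lower, as were 4.23% of all genes tested. Their log2 fold changes were −6.33 (SE 0.210), −5.33 (SE 0.198) and −5.16 (SE 0.156), with adjusted p of at most 9.38e-09 (edgeR), beside −5.74 for *NvpaxA*.

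These genes did not share the order of *NvpaxA* over the pairs. Residual *ncol4* was 1.38%, 0.965%, 1.73%, 1.44% and 0.884% in pairs 1 to 5. Residual *ggt* was 2.28%, 1.68%, 3.63%, 2.59% and 2.90%, and residual *NEP3-like* 2.51%, 3.01%, 3.88%, 2.48% and 2.35%. Each of these genes was highest in pair 3, where *NvpaxA* and *Nvznf845* were lowest. In pair 3 they rested on 23, 57 and 30 reads, with counting intervals of 1.10% to 2.61%, 2.74% to 4.72% and 2.61% to 5.56%. Each interval overlapped that of the same gene in pair 4. With library size alone in place of TMM, pair 3 was no longer the highest for any of these genes, at 1.08%, 2.27% and 2.42%. The summed capsule collagen genes in pair 3 went from 6.16%, the highest of the pairs, with TMM to 3.84%, the lowest, with library size alone. The log2 ratio of each gene minus that of *Nvznf845*, which needs no scaling, was also highest in pair 3, at −2.73 for *ncol4*, −1.66 for *ggt* and −1.57 for *NEP3-like*. In the other pairs these differences lay between −4.55 and −2.67. *Nvznf845* itself was lowest in pair 3, which raises such a difference there. The difference therefore cannot show that these genes were highest in pair 3. That of the capsule sum was also highest there, at −0.899.

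**Figure D4:**
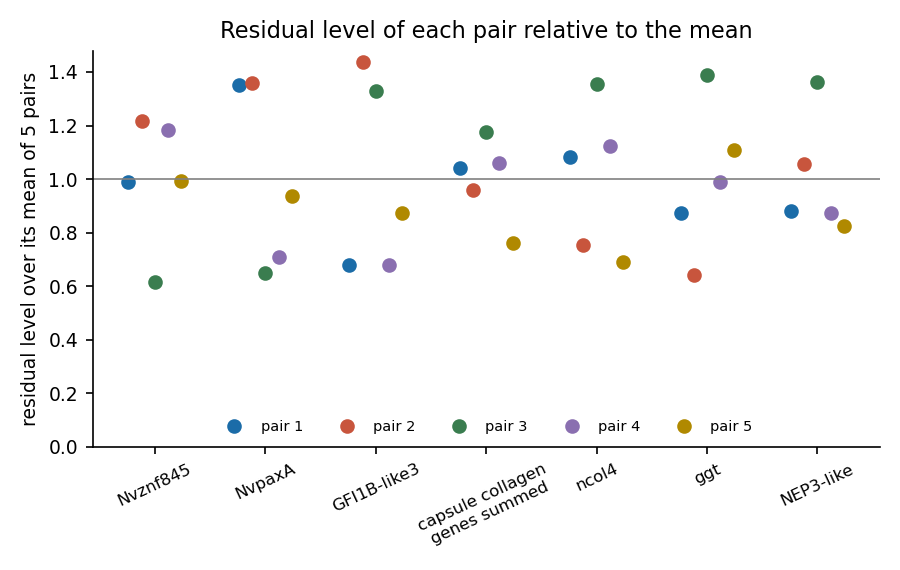
Residual level in each pair divided by the mean over the 5 pairs, for the 3 regulators, *ncol4*, *ggt*, *NEP3-like* and the summed capsule collagen genes, which include *ncol4*. In pair 3, *Nvznf845* and *NvpaxA* lie at 0.616 and 0.648 of their means, and *GFI1B-like3* at 1.33, *ncol4* at 1.35, *ggt* at 1.39, *NEP3-like* at 1.36 and the capsule sum at 1.18 lie above theirs on this TMM scale, where with library size alone the capsule sum is lowest in pair 3.

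The other transcription factor genes of the same table put these falls beside those of further regulators. Of 12 such genes, 5 were called lower (41.7%, beside 4.23% of all genes tested), none was called higher and 7 were not called, of which 2 had an unadjusted p under 0.05. The table marks the same 5 genes for *Nvznf845* and none of the other 7. Those marks were set partly from these samples, so the count restates them and is no separate support. The median log2 fold change of the 12 genes was −0.50, beside 0.0099 over all genes tested. The largest fall was that of *cnido-jun*, a bZIP gene of the AP-1 type, at −6.59 (SE 0.332), below even *NvpaxA*. *coup-like2* and *coup-like1*, genes of the COUP nuclear receptor type, fell by 3.52 and 2.93 on the log2 scale. *foxL2*, a forkhead gene, fell by 1.52 and *sox2*, an HMG box gene, by 1.23, so that both fell less than *Nvznf845* and *GFI1B-like3*. Adjusted p of these 5 genes was at most 0.000246 (edgeR).

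*foxE-like* had a log2 fold change of −0.54 (SE 0.140, adjusted p = 0.0425, edgeR) and *ATF2-like1* one of −0.45 (SE 0.0995, adjusted p = 0.0160, edgeR), both short of the size required. The other 5 genes lay between −0.37 and 0.43, among them *cnido-fos* at −0.074, and had adjusted p of at least 0.468.

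**Figure D5:**
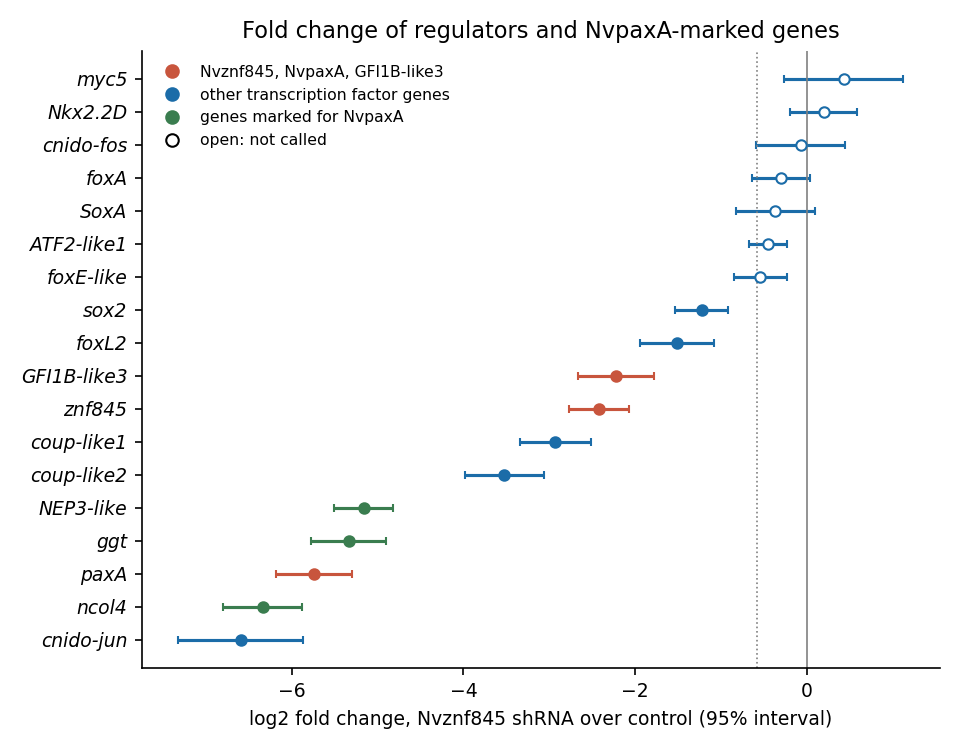
Log2 fold change, *Nvznf845* shRNA against control, of the 3 regulators, the genes marked for *NvpaxA* and 12 other transcription factor genes, with 95% intervals from the edgeR fit, open points for genes not called and a dotted line at the 1.5-fold threshold. *NvpaxA* at −5.74 lies with *cnido-jun* and the genes marked for *NvpaxA*, which the study also marks for *Nvznf845*. *Nvznf845* (−2.42) and *GFI1B-like3* (−2.22) lie between *coup-like1* and *foxL2*.

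Genes most like each member over the 10 libraries were found by the root mean square difference of log2(CPM + 0.5), each gene centred on its own mean, among 16813 genes with at least 1 CPM in controls. NV2.4707 was nearest to *Nvznf845* (0.183), followed by NV2.6104 (0.216) and NV2.16361 (0.228), where the median gene was at 1.26. NV2.11815 was nearest to *NvpaxA* (0.195), then NV2.18597 (0.226) and NV2.1122 (0.241), with a median of 2.75. NV2.13261 was nearest to *GFI1B-like3* (0.189), then NV2.13521 (0.217) and NV2.25010 (0.223), with a median of 1.06. Between members, *Nvznf845* and *GFI1B-like3* were 0.387 apart, *NvpaxA* and *Nvznf845* 1.53, and *NvpaxA* and *GFI1B-like3* 1.75. With 1 CPM added in place of 0.5, only 1 of the 3 genes named for *Nvznf845*, 1 for *NvpaxA* and 0 for *GFI1B-like3* were named again. These neighbours are a description, and low genes enter them through the added constant.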

How the data were processed

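RNA-seq of 10 libraries was analysed, 5 with *Nvznf845* shRNA and 5 controls, grouped by the labelled treatment and replicate number. Per the labels, the authors had polyA RNA sequenced as paired reads of 150 bases and trimmed by a provider, and quantified with Salmon against the Nvec200 gene models (version and settings not given in the sources used here). For each transcript the authors deposited an estimated count, which can be fractional, and a TPM.

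Estimated counts were summed per gene, rounded, and tested by condition alone with the quasi-likelihood test of edgeR 4.0.16 in R 4.3.3 (filterByExpr with a minimum count of 10, TMM, robust glmQLFit). P-values were adjusted by Benjamini-Hochberg over all genes. Transcripts were fitted likewise for their fold changes. Usage was tested with diffSpliceDGE on a glmFit fit of the transcripts, without the quasi-likelihood step. The standard error is the log2 fold change over the square root of F. The script was tested on simulated counts. DESeq2 1.42.0 and limma 3.58.1 served as alternatives. Exact permutation tests were two-sided. Replicates are separate pools of embryos by the labels. No libraries of a group were duplicates.

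The replicate numbers pair the libraries: the study states paired replicates, and both libraries of a number share a labelled batch. Deviations from the group means within pairs 1 to 5 had r = 0.474, −0.0386, 0.191, 0.164 and 0.609 across genes, which are not independent.

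Gene names came from the study's table. Named genes were the 3 regulators, 12 other transcription factor genes of that table, the 3 genes marked for *NvpaxA*, capsule collagen genes, genes with neighbouring numbers that passed the test, and the 3 genes most like each regulator. Members and lists were chosen with earlier results of these data known. The values of 1 transcription factor gene are not reported here. The transcript comparisons were added after seeing the data. Lists of other cell types were not run.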

Additional observations from a re-analysis of the deposited data

Results flagged for a closer look

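The knockdown library of pair 3 stood apart in the make-up of *Nvznf845*. NV2t017877002.1 took 32.5% of the gene's estimated reads there, against 11.6% to 17.0% in the other 4 knockdown libraries, and 17.4% of its TPM. In both measures the gap to the next library was more than 0.71 of the whole range, the 95% critical value of Dixon's test for 5 samples. Of 35 groups of 5 values examined in this way, these were the 2 that passed it, where chance alone passes about 1 in 20, and both rest on the same library. That library had 60.1 estimated reads of NV2t017877001.1 and 28.9 of NV2t017877002.1, the fewest of any library for each.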

How the results depend on the processing

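The calls of *Nvznf845*, *NvpaxA* and *GFI1B-like3* held in each of 29 alternatives (DESeq2, limma on TPM, other scaling and filters, the replicate block, 1 library or pair left out, 1 batch). Their log2 fold changes ranged from −2.66 to −2.30, from −5.99 to −4.62 and from −2.53 to −1.77, with adjusted p of at most 7.94e-05, 8.70e-06 and 0.000312. With the replicate block (edgeR) they were −2.45, −5.76 and −2.24, and 820 genes were called lower, beside 803 without it. In pairs 4 and 5, which share a batch, they were −2.32, −5.99 and −2.53. Genes called lower numbered 660 to 960. The difference of *GFI1B-like3* minus *Nvznf845* reversed to −0.0669 without replicate 3 (exact sign-flip p = 0.875) and ranged up to 0.410 when other pairs were left out. Residual *Nvznf845* in pair 3 moved to 5.89% as TPM, and residual *GFI1B-like3* there to 18.4% with library size alone and 18.3% as TPM. The cause was not tested. Of 174 values of comparisons under alternatives, 173 were rated the same, by direction and side of the threshold where these applied. Only the log2 fold changes among them could have changed side. Exact tests over 5 pairs or libraries cannot go under 0.05. The counts of genes called lower and the mean residual levels carry no p. An exact test over 5 pairs cannot go under p = 0.0625, and 17 to 85 reads per knockdown library limit the residual levels of *NvpaxA* and *GFI1B-like3*.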

Other observations

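Of 11 genes whose numbers lie 1 or 2 above or below that of a member, 6 were tested. A neighbouring number is not a checked position. NV2.6788, numbered 2 above *NvpaxA*, fell from 76.0 ± 12.1 to 6.39 ± 0.856 CPM (± SD over 5 libraries each), with a log2 fold change of −3.58 (SE 0.149, adjusted p = 1.88e-08, edgeR). NV2.6785, numbered 1 below *NvpaxA*, was not called and had a log2 fold change of −0.16 (SE 0.171). NV2.25412, numbered 2 above *GFI1B-like3*, rose from 4.81 ± 0.645 to 10.2 ± 1.03 CPM, with a log2 fold change of 1.08 (SE 0.131, adjusted p = 0.000135, edgeR). Next to *Nvznf845*, NV2.17878 and NV2.17879 were not called, at 0.12 and −0.010. Over all genes tested, 4.23% were called lower and 1.21% higher.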
